A study of Mus musculus with 3 samples.

Results

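Cycling T cells of the pancreatic islets were chosen by the unique molecular identifiers (UMIs, each standing for 1 captured RNA molecule) of a few genes in each cell. A cell was taken as cycling when it held at least 3 UMIs of Mki67 and Top2a together, at least 1 UMI of Cd3d, Cd3e and Cd3g together and at most 1 UMI of Cd79a, with at least 1000 UMIs in all and under 10% of them mitochondrial. Mki67 (ENSMUSG00000031004, chr7:135689784-135716361) encodes the Ki-67 protein that coats mitotic chromosomes, and Top2a (ENSMUSG00000020914, chr11:98992943-99024189) the topoisomerase that untangles DNA. The Cd3 genes encode chains of the T-cell receptor complex, and Cd79a a chain of the B-cell receptor. There were 323 such cells among 18178 T cells, in 26947 cells in all. They were set against the 16700 T cells with no UMI of either gene, called non-cycling here, while the 1155 T cells with 1 or 2 UMIs entered neither group.

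The study sequenced live CD45+ cells (CD45 marks leukocytes) sorted from the islets of wild-type female non-obese diabetic (NOD) mice, a strain that develops autoimmune diabetes as T cells destroy the insulin-producing beta cells. The mice were untreated, aged 15 to 16 weeks by the study's methods, and the islets of 2 or 3 of them were pooled for each of 3 libraries (replicates 1, 2 and 3). No allele or agent differed between the libraries, so cell states were compared within them, and the 3 libraries were the replicates. Libraries came from 2 experiments, but which library belongs to which was not given, so an experiment cannot be told apart from a library, and pooled mice cannot be told apart within one. The libraries held 5844, 9537 and 11566 cells and 33851381, 74775394 and 80806452 UMIs.

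T cells pass from rest into division after an antigen receptor signal, when cyclin-dependent kinases release the E2F factors that switch on the genes of DNA replication. The genes of chromosome segregation follow in G2 phase, and many of them are held silent in resting cells through a short promoter element, the cell cycle genes homology region (CHR). In islets of NOD mice, dividing T cells may be CD8+ T cells that can kill beta cells, CD4+ helper cells or Foxp3+ regulatory cells that restrain both.

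Replicate 1 stood apart from the other libraries. Cycling cells made up 5.60% of its T cells (173 of 3088, exact 95% interval 4.82 to 6.47%), against 1.06% in replicate 2 (67 of 6343, 0.820 to 1.34%) and 0.949% in replicate 3 (83 of 8747, 0.757 to 1.18%). These intervals, and those below, cover counting error only. The median cycling cell held 13 UMIs of Mki67 and Top2a in replicate 1, 6 in replicate 2 and 5 in replicate 3. The libraries shared 12, 18 and 29 cell barcodes in pairs, and 2 of these shared barcodes were those of a cycling cell in at least 1 of the 2 libraries.

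Depth moved with the cycling state. The median cycling cell held 15949, 17018 and 17049 UMIs in replicates 1, 2 and 3, and the median non-cycling T cell 3789, 6065 and 5296. A minimum of 3 UMIs is more easily reached in a deeper cell, and the part of the rule in this gap was not tested. Genes and shares below are also given for cells thinned to 2000 UMIs, or against depth-matched non-cycling cells. These were chosen for a like total of UMIs, up to 3 for each cycling cell. For the class makeup they came from the same library, with medians of 9582, 16641 and 16457.5 UMIs in replicates 1, 2 and 3. For genes they came from the same library and class. In CD8 cells their medians were 9534.5, 15759 and 12888 UMIs, under the 17166, 18017 and 16277 of cycling cells. In CD4 cells they were 9894, 15289.5 and 17237 against 15459, 15267.5 and 17258 UMIs. In Foxp3+ cells they were 7182, 13459 and 19707 against 16576.5, 14202.5 and 20574.5 UMIs. Depth was thus not made equal in CD8 cells, nor in replicate 1. Only 22 of the 323 cells passed the study's own limits, chiefly its limit of 6000 UMIs, which 300 cycling cells met or exceeded.

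Promoter elements are shown for Mki67 and Top2a, which define these cells, and for other cell-cycle genes that take no part in the rule. The 120 bases before the RefSeq start site (GRCm38.p6) are printed 5′ to 3′ for 5 genes of G2 phase and mitosis, and for 3 genes of DNA replication. Capitals mark the letters searched on both strands. These were TTTGAA or TTCGAA for the CHR in Mki67, Top2a, Cdk1, Ube2c and Cks1b, and TTTGGCGC, TTTCGCGC, TTTCCCGC or TTTGCCGC for an E2F element in Mcm6, Cdca7 and Hells. In Mcm6 the first capitals are a pair of matches on opposite strands that overlap.
Mki67 (chr7:135716380-135716499, minus strand): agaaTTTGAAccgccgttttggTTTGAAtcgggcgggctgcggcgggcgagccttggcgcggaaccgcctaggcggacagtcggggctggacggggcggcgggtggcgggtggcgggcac
Top2a (chr11:99024190-99024309, minus strand): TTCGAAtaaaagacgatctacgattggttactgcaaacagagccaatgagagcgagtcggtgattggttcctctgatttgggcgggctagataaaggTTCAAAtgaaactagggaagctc
Cdk1 (chr10:69352913-69353032, minus strand): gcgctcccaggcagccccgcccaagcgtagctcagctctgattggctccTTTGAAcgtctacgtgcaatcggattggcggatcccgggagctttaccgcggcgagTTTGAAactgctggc
Ube2c (chr2:164769809-164769928, plus strand): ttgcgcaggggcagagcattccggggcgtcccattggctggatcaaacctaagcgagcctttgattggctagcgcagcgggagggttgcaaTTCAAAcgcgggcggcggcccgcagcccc
Cks1b (chr3:89418292-89418411, minus strand): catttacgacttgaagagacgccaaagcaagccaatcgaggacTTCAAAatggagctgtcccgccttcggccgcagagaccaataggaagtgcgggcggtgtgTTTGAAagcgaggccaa
Mcm6 (chr1:128359706-128359825, minus strand): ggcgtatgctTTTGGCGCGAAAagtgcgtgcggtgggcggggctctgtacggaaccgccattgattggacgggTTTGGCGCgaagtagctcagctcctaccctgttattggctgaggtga
Cdca7 (chr2:72476099-72476218, plus strand): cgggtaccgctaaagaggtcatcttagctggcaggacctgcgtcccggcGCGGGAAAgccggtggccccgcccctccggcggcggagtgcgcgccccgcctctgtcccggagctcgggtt
Hells (chr19:38930870-38930989, plus strand): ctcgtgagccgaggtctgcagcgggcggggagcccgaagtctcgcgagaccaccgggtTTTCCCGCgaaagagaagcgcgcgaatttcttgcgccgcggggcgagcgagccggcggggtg

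In the window from 250 bases before to 50 after the start, the CHR letters lay in 71.4% of the G2 and mitosis genes with a RefSeq window (55 of 77 matched, of 96 listed with Mki67 and Top2a), against 21.7% of all 27025 genes and 16.8% of the 6606 tested genes with a window. The E2F letters lay in 40.5% of the S-phase genes (17 of 42 matched, of 57 listed), against 2.6% of all genes and 5.46% of those tested. The CHR letters of the G2 and mitosis genes gathered at the start site, with 27.7 matches per 100 starts in the first 25 bases after it, against 1.44 over all genes. The CCAAT letters, bound by the factor NF-Y, lay in 72.7% of the G2 and mitosis genes and 41.1% of all genes. A match is a run of letters and not a shown binding site.

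**Figure D1:**
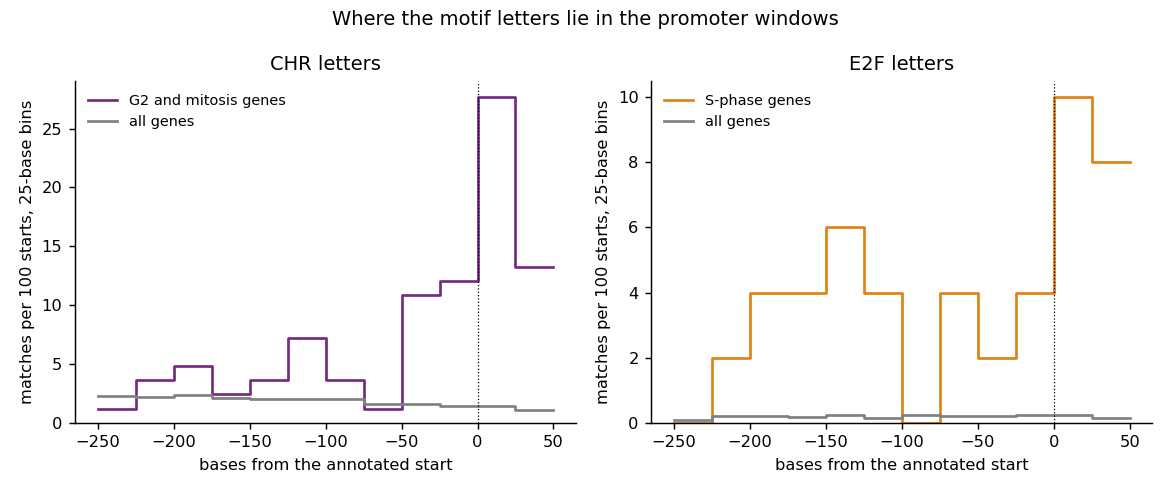
Matches per 100 start sites in bins of 25 bases against the distance from the start site in bases, for the CHR letters in G2 and mitosis genes and the E2F letters in S-phase genes, with all genes in grey. Matches of the CHR letters peak at 27.7 per 100 starts just after the start site, while those of the E2F letters are spread through the window, with up to 10.0 per 100 starts just after it and 6.0 from 150 to 125 bases before it.

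Genes of DNA replication and of mitosis stood higher in cells with more UMIs of the 2 chosen genes, which is what such a rule does and is given as a description. The 57 S-phase genes together stood at 1270 CPM (UMIs scaled to a common library total) in T cells with no UMI of Mki67 and Top2a, at 1594 CPM in the 235 cells with 2 UMIs, just outside the threshold, at 2905 CPM in the 72 cells with 3 UMIs, just inside it, and at 8751 CPM in the 172 cells with 10 or more. The 94 G2 and mitosis genes stood at 1963, 2533, 3248 and 12060 CPM in the same cells. Cells at the threshold therefore held less of both lists than the rest of the cycling cells, and came in like numbers from the libraries (22, 24 and 26 cells), whereas 113 of the 172 cells with 10 or more came from replicate 1.

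**Figure D2:**
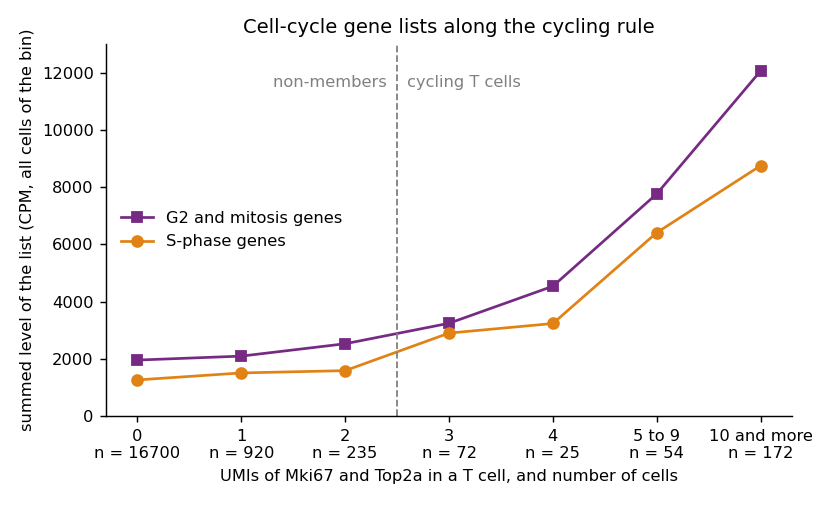
Summed level (CPM) of the S-phase and of the G2 and mitosis genes in T cells grouped by their UMIs of Mki67 and Top2a together, over the 3 libraries. Both lists climb past the threshold of 3 UMIs, from 2905 and 3248 CPM at 3 UMIs to 8751 and 12060 CPM at 10 or more.

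Both Mki67 and Top2a were found in 253 of the 323 cells, Mki67 alone in 18 and Top2a alone in 52. UMIs of the S-phase list outnumbered those of the G2 and mitosis list in 102 cells (31.6%, exact 95% interval 26.5 to 37.0%). This share was 33.5% in replicate 1, 44.8% in replicate 2 and 16.9% in replicate 3, and over all libraries 31.6% of CD8, 34.4% of CD4 and 29.3% of Foxp3+ cells. Within libraries the class shares were 32.2, 34.6 and 36.7% in replicate 1, 48.4, 50 and 25% in replicate 2 and 8.33, 24 and 18.8% in replicate 3, from 12 to 59 cells each. The lists differ in length, so the share ranks cells and gives no length of a phase. Of T-cell genes that the rule did not use, the 12 identity genes, among them the receptor constant segments Trac and Trbc2, stood at 4579, 5174 and 5350 CPM in cycling CD8 cells against 5535, 4423 and 4548 CPM in non-cycling ones, and 2 of them rose and 2 fell, calls of which 3, 1 and 1 held without replicates 1, 2 and 3 and 0 at matched depth.

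The question of which T cells divide was asked in 3 classes. CD8 T cells held at least 2 UMIs of Cd8a and Cd8b1 and none of Cd4 or Foxp3. CD4 T cells held at least 1 UMI of Cd4, none of Foxp3 and fewer than 2 of the CD8 genes. Foxp3+ T cells, the regulatory class, held at least 1 UMI of Foxp3 and fewer than 2 of the CD8 genes. Of the 323 cycling cells, 114 were CD8, 93 CD4 and 58 Foxp3+, while 23 held at least 2 CD8 UMIs along with Cd4 or Foxp3 and 35 fell in none of the classes.

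A larger share of CD8 than of CD4 T cells was cycling in each library. It was 10.6% (59 of 557) in replicate 1, 2.63% (31 of 1181) in replicate 2 and 1.64% (24 of 1466) in replicate 3 for CD8 cells, and 5.78% (52 of 900), 0.764% (16 of 2095) and 0.839% (25 of 2981) for CD4 cells. The Foxp3+ share was 11.2% (30 of 269), 3.05% (12 of 394) and 2.77% (16 of 578). CD8 cells exceeded CD4 cells by 2.49 percentage points (SD 2.08, n = 3), and Foxp3+ cells exceeded CD4 cells by 3.20 points (SD 1.90), each in 3 of 3 libraries. The exact two-sided permutation test over 3 libraries gave p = 0.25 for both, the smallest it allows, so neither difference could reach 0.05. Foxp3+ and CD8 cells differed by 0.704 points (SD 0.376, n = 3, exact permutation p = 0.25), and the exact intervals of the 2 classes overlapped in each library.

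**Figure D3:**
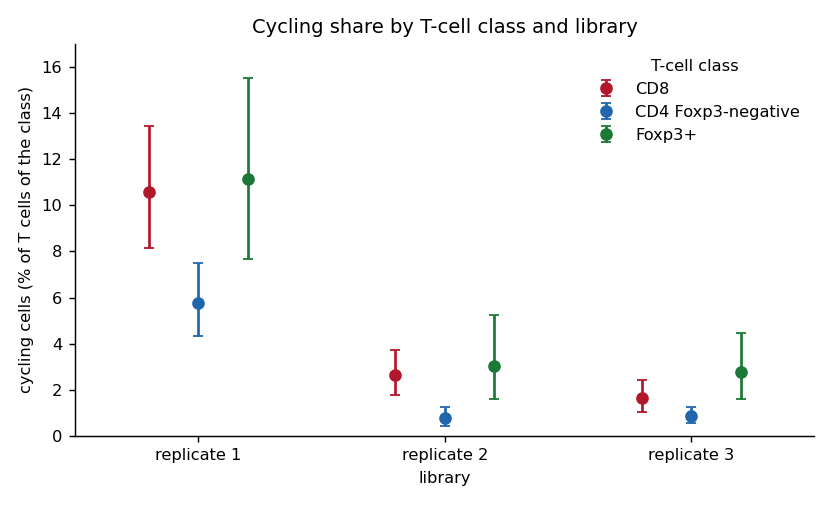
Cycling cells as a percent of the T cells of each class in the 3 libraries, with exact 95% binomial intervals as bars. CD8 and Foxp3+ shares lie above the CD4 share in each library, and all 3 shares of replicate 1 (10.6, 5.78 and 11.2%) lie above those of the other libraries.

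Class and depth were tied, because a deeper cell more often shows its CD8, Cd4 or Foxp3 UMIs. After thinning each cell to 2000 UMIs, which left few cells over the threshold, the CD8 share of cycling cells was 1.42% (4 of 282), 0.259% (1 of 386) and 0.576% (3 of 521), and the CD4 share 1.70% (10 of 588), 0% (0 of 1145, which allows up to 0.262%) and 0.0597% (1 of 1675). The difference of CD8 over CD4 then was -0.282, 0.259 and 0.516 points (mean 0.164, exact permutation p = 0.75), so its sign turned in replicate 1. That of Foxp3+ over CD4 cells was -0.358, 0.427 and 0.872 points (mean 0.314, exact permutation p = 0.5) and turned in replicate 1 too. The makeup of the cycling cells, with the class read from thinned cells, was 16.4% CD8 against 6.75% of non-cycling T cells, a difference of 3.04, 21.0 and 5.0 points (mean 9.67, exact permutation p = 0.25, and 4.02 without replicate 2). Foxp3+ cells made up 7.34% against 3.76% (differences of 0.480, 2.74 and 7.53 points, mean 3.58, exact permutation p = 0.25). The mean was 1.61 points without replicate 3, and against unthinned depth-matched cells, with a stricter T-cell gate or with a threshold of 2 UMIs the sign turned in 1 library (-0.638, -1.11 and -0.355 points there). CD4 cells made up 15.8% against 18.9% (exact permutation p = 0.5). Thinned cells that met no class rule made up 65.3, 49.3 and 63.9% of the cycling and 67.4, 72.8 and 71.4% of the non-cycling cells.

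Genes were then compared between cycling and non-cycling cells of the same class. UMIs were summed per library, class and state, and the 18 sums entered 1 edgeR quasi-likelihood fit, blocked by library, over 8292 genes with enough UMIs. A gene is called at a Benjamini-Hochberg adjusted p under 0.05, and folds are log2 fold changes of cycling over non-cycling cells, ± standard error. In CD8 cells 17.2% of the genes tested were called higher (1428) and 13.1% lower (1083). In CD4 cells 16.7% were higher (1381) and 10.7% lower (891), and in Foxp3+ cells 12.0% higher (995) and 5.57% lower (462). The median fold over all genes was -0.0183, -0.00813 and -0.0138 in the 3 classes. With non-cycling cells matched on total UMIs, far fewer cells stood behind the test, and 730 of the 2511 CD8, 649 of the 2272 CD4 and 493 of the 1457 Foxp3+ calls remained. A call that is named below as kept held in that comparison too. The sums hold more or less RNA per cell as well as more or fewer cells that express a gene, and these cannot be told apart in them.

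Nearly all S-phase genes (57, 56 and 56 of 57 tested in CD8, CD4 and Foxp3+ cells) and G2 and mitosis genes (85, 84 and 81 of 88) were called higher, which the rule makes near certain and which is not read further. Outside these lists and that of chromatin genes, the calls with the largest rise in CD8 cells were Cep55, Cenph and Ncapg2, followed by histone genes, Brca1, Nrm and Dtl. Cenph, a kinetochore protein, stood at 60.8, 52.3 and 38.7 CPM in cycling CD8 cells against 1.30, 1.89 and 0.948 CPM in non-cycling ones (5.12 ± 0.35), and Cep55, which acts in the last cut between daughter cells, rose by 5.80 ± 0.43 in CD8 and 5.68 ± 0.43 in CD4 cells. Ncapg2, a condensin II subunit, rose by 4.53 ± 0.28 and 4.70 ± 0.28. Reads of the histone genes can be shared between near-identical copies and are uncertain.

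Of 23 regulators of entry into and exit from the cycle tested, 10 rose and 5 fell in CD8, 9 rose and 6 fell in CD4, and 7 rose and 4 fell in Foxp3+ cells. At matched depth 6, 5 and 6 were higher and 2, 1 and 0 lower. The 2 transcription factors E2f2 and E2f3 rose in all 3 classes, E2f2 from 4.77, 3.78 and 3.9 CPM to 39.4, 34.3 and 38.7 CPM in CD8 cells (3.13 ± 0.26, edgeR adjusted p = 7.2e-09). Cdk2, the kinase of S-phase entry, rose by 2.62 ± 0.32, 2.23 ± 0.31 and 2.61 ± 0.37 in CD8, CD4 and Foxp3+ cells. All these were kept in the depth-matched comparison and with any 1 library left out.

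The kinase inhibitor Cdkn1b (p27, chr6:134920401-134925513), a keeper of the resting state, was lower in cycling cells of all 3 classes by CPM. In CD8 cells it stood at 98.4, 93.8 and 138 CPM against 183, 174 and 174 CPM (-0.75 ± 0.15, edgeR adjusted p = 0.00072), and the groups did not overlap. In CD4 and Foxp3+ cells it changed by -0.76 ± 0.15 and -0.73 ± 0.16, and none of these 3 calls was kept against depth-matched cells (-0.48, -0.37 and -0.31). In cells thinned to 2000 UMIs it was found in 18.6, 16.1 and 16.7% of cycling against 31.6, 30.3 and 27.4% of non-cycling CD8 cells, with 15.2, 15.9 and 15.0% in B cells, but in Foxp3+ cells in 33.3, 41.7 and 50% against 39.7, 36.5 and 40.4%, higher in 2 of 3 libraries. In CD4 cells the thinned shares were 17.3, 37.5 and 36.0% against 40.1, 36.9 and 38.3%, where replicate 1 alone stood well apart. Btg1, an anti-proliferative gene of resting lymphocytes, fell in CD8 cells by 1.10 on the log2 scale and was kept there.

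Cdkn2c and Cdkn2a, which also encode inhibitors, rose. Cdkn2c (p18, chr4:109660876-109667189) stood at 23.1, 36.1 and 36.2 CPM in cycling CD8 cells against 6.95, 3.66 and 4.63 CPM (2.42 ± 0.37, edgeR adjusted p = 3.6e-05). It rose by 2.495 ± 0.32 in CD4 and 2.28 ± 0.39 in Foxp3+ cells, and was kept in all 3 classes at matched depth. Cdkn2a, which encodes p16 and p19Arf, rose by 3.97 ± 0.43 in CD8 cells and was kept there, and rose by 2.10 ± 0.44 and 2.77 ± 0.56 in CD4 and Foxp3+ cells, where neither was kept and the latter was lost without replicate 1. UMIs cannot separate its 2 products.

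Genes of naive and central memory T cells were lower in cycling cells. Of 13 tested, 9 fell in CD8 cells, 8 in CD4 cells and 4 in Foxp3+ cells, none rose in any class, and the list medians were -1.22, -1.29 and -0.79. At matched depth 6, 4 and 1 of the 12 genes tested were lower, and without replicate 1 8, 8 and 1 of the calls held. Il7r (chr15:9505788-9530176) encodes the receptor for interleukin-7, a survival signal of resting T cells. It stood at 49.7, 79.4 and 65.2 CPM in cycling CD8 cells and at 353, 248 and 284 CPM in non-cycling ones, so every cycling value lay under every non-cycling one. The fold was -2.25 ± 0.30 in CD8 (edgeR adjusted p = 7.1e-06) and -2.77 ± 0.31 in CD4 cells, both kept. In Foxp3+ cells it was -1.30 ± 0.32 (edgeR adjusted p = 0.0070), which was not kept and was lost without replicate 1 (-1.10, edgeR adjusted p = 0.059).

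Il7r was also found in a smaller share of cycling cells at equal depth. In CD8 cells thinned to 2000 UMIs, Il7r was found in 15.3, 19.4 and 12.5% of cycling and in 35.1, 32.5 and 32.7% of non-cycling cells. B cells thinned alike, which should lack Il7r, showed it in 1.41, 1.07 and 0.948%, the level that free RNA can give. Without thinning, at a median depth of 4146, 6665 and 5744.5 UMIs, the B-cell shares were 2.73, 2.33 and 2.75%. Among CD4 cells the shares were 1.92, 6.25 and 24% against 37.2, 46.9 and 47.4%. Cycling cells were lower in each of the 3 libraries in both classes (exact permutation p = 0.25, the smallest possible with 3 libraries).

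Ccr7 (chr11:99144196-99155077), the receptor that guides T cells into lymph nodes, stood at 260, 253 and 196 CPM in cycling CD8 cells against 508, 571 and 583 CPM. The fold was -1.22 ± 0.19 in CD8, -1.02 ± 0.19 in CD4 and -0.82 ± 0.19 in Foxp3+ cells, kept in all 3 at matched depth, but lost in Foxp3+ cells without replicate 1 (-0.64, edgeR adjusted p = 0.055). The chromatin organiser Satb1 fell by 1.26 ± 0.13, 1.62 ± 0.14 and 0.79 ± 0.14, and was kept in CD8 and CD4 cells. S1pr1, the receptor for exit from tissue, changed by -1.95 in CD8 and -1.75 in CD4 cells, and its activator Klf2 by -1.23 and -1.45. S1pr1 was kept at matched depth only in CD8 cells, and Klf2 in neither class. Tcf7, a factor of memory and stem-like cells, did not pass the test in any class (-0.46 ± 0.21, 0.06 ± 0.21 and -0.30 ± 0.29). In thinned CD8 cells it was found in 15.3, 6.45 and 16.7% of cycling against 24.3, 24.4 and 21.5% of non-cycling cells, lower in each library (mean difference -10.6 points, exact permutation p = 0.25, the smallest that 3 libraries allow), with 0.129, 0.126 and 0.345% in B cells. The other classes were mixed. The shares were 38.5, 18.75 and 12.0% against 26.5, 26.2 and 24.85% in CD4 cells, higher in replicate 1. In Foxp3+ cells they were 3.33, 16.7 and 12.5% against 11.4, 12.2 and 14.3%, higher in replicate 2.

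Lef1 (chr3:131110471-131224356), a partner of Tcf7 in resting T cells, was the single gene whose fold differed between classes by a test of the difference itself. It stood at 56.6, 80.0 and 86.2 CPM in cycling CD4 cells against 180, 362 and 388 CPM (-1.99 ± 0.19), and at 71.4, 85.9 and 140 CPM in cycling Foxp3+ cells against 106, 126 and 157 CPM (-0.26 ± 0.20). The difference of -1.73 ± 0.28 had an edgeR adjusted p of 0.037, 1 call in 8292 genes (0.0121%), and was lost at matched depth, without replicate 2 and without replicate 3. No gene differed between CD8 and CD4 cells (0% of 8292) or between CD8 and Foxp3+ cells (0%). Unadjusted edgeR p-values under 0.05 were reached by 408 and 573 of the 8292 genes in these comparisons. Such a threshold passes a share of about 0.05 of the genes where none differ. DESeq2 called 1 and 15, with the adjusted p missing for 6270 of 8292 genes in the latter comparison.

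**Figure D4:**
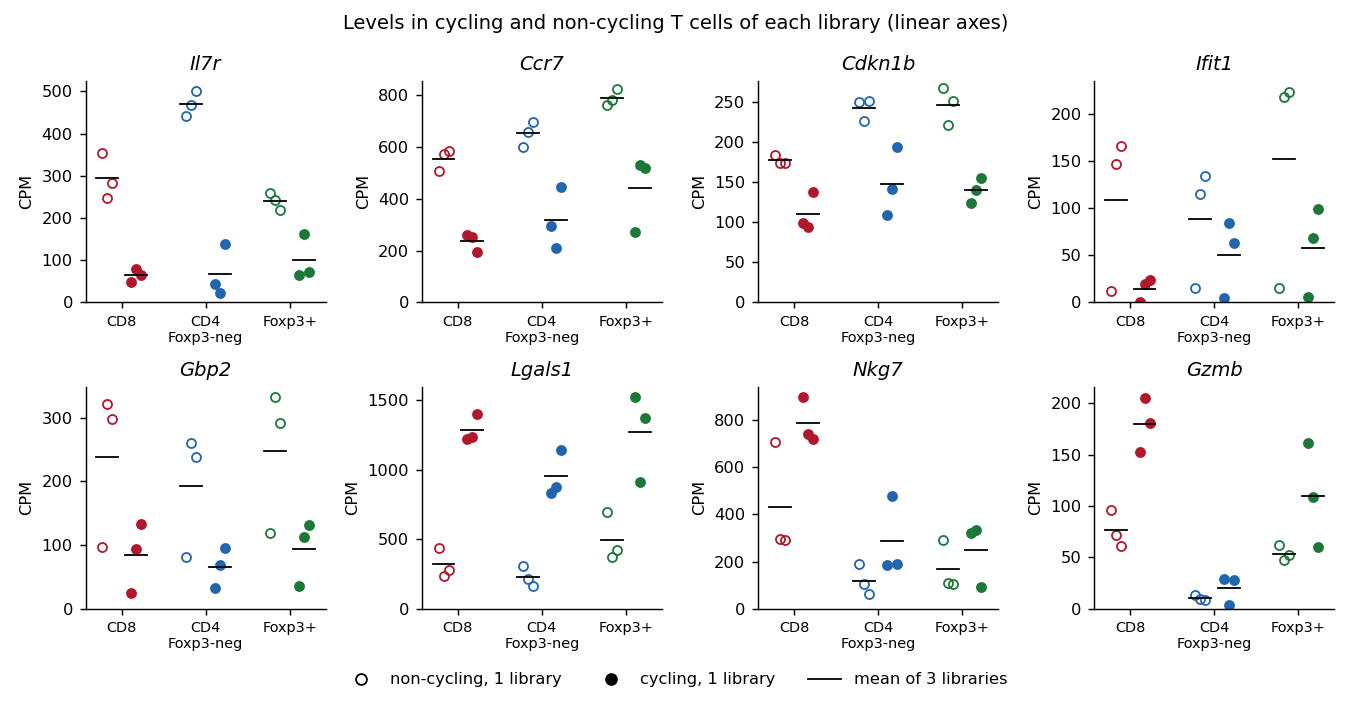
Level (CPM) of 8 genes in each library, in cycling (filled) and non-cycling (open) T cells of the 3 classes, with a line at the mean. Il7r and Ccr7 lie lower and Lgals1 higher in the cycling cells of each library and class, while Nkg7 and Gzmb overlap between states in some classes.

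Receptors for cytokines were lower as well. Of 15 tested, 10 fell in CD8, 7 in CD4 and 6 in Foxp3+ cells and none rose, with 3, 2 and 1 lower at matched depth. In Foxp3+ cells 3 of the 6 calls held without replicate 1, and 3 without replicate 2. Besides Il7r, the signal chain of the interleukin-6 family, Il6st, stood at 17.98, 30.7 and 29.0 CPM in cycling CD8 cells against 81.2, 74.0 and 72.9 CPM, a difference larger than the spread in either state (-1.75 ± 0.24, kept). It fell in CD4 cells by 0.80 (not kept, and lost without replicate 2) and in Foxp3+ cells by 1.20 (kept). The interleukin-4 receptor Il4ra changed by -1.33, -1.57 and -1.02, the interferon gamma receptor chain Ifngr1 by -0.87, -1.17 and -0.58 and the TGF-beta receptor Tgfbr2 by -1.01, -1.52 and -0.53, the last lost with any 1 library left out. Of these, only Tgfbr2 in CD4 cells was kept at matched depth. The interleukin-2 receptor chains Il2ra and Il2rb did not pass in any class, with values in CD8 cells of 1.04 ± 0.53 and -0.17 for their folds.

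Targets of interferon were mostly lower in cycling cells, and none of the 22 tested was called higher. In CD8 cells 21 of the 22 folds lay below 0. The CD8 list summed to 1395, 3547 and 3541 CPM in cycling against 2663, 3740 and 4019 CPM in non-cycling cells. Its most abundant gene, Ifi27l2a, had a higher mean in cycling CD8 cells (1487 against 1133 CPM). In CD8 cells 18 fell, in CD4 cells 11 and in Foxp3+ cells 13, with list medians of -0.99, -0.87 and -1.03. At matched depth 5, 4 and 3 of 21 were lower. In a fit without the library block 3, 2 and 1 of these calls held, without replicate 3 9, 6 and 6, and in all 3 fits that left out 1 library 7, 5 and 4. Without replicate 1 12, 9 and 10 held, and 1 gene of the list was called higher in CD8 cells. Without replicate 2 14, 10 and 7 held. Among Pdcd1-positive cells 14, 2 and 6 held, the last from cycling Foxp3+ cells of replicates 1 and 3 alone. Replicate 2 had 8 such cells, under the minimum of 10 for a sum. Gbp2 (chr3:142620602-142638008), a guanylate-binding protein induced by interferon gamma, stood at 23.97, 93.8 and 133 CPM in cycling CD8 cells against 96.8, 322 and 298 CPM (-1.66 ± 0.17, edgeR adjusted p = 2.6e-07, kept), lower in each library although the states overlapped across libraries. It changed by -1.49 ± 0.19 in CD4 cells (kept) and by -1.37 ± 0.19 in Foxp3+ cells (not kept).

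Ifit1 (chr19:34640871-34650009), an antiviral gene induced by type I interferon, was found at 0, 19.9 and 24.2 CPM in cycling CD8 cells against 12.6, 147 and 166 CPM, so that replicate 1 was low in both states. The fold was -3.04 ± 0.28 in CD8 cells (edgeR adjusted p = 3.3e-08, kept), -1.34 in Foxp3+ cells (kept) and -0.98 in CD4 cells (not kept, and lost without replicate 3). Of the 9 genes of antigen presentation by MHC class I, which interferon also induces, 2 rose and 2 fell in CD8 cells, and the heavy chain H2-K1 was lower in all 3 classes (-0.41, -0.37 and -0.44, none kept, and each lost without replicate 3).

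Of 24 genes of effector function tested, 8 rose and none fell in CD8 cells, 6 rose and 2 fell in CD4 cells and 2 rose in Foxp3+ cells, the last a smaller share than that of all genes. The list medians were 0.37, 0.15 and -0.36, with 15 of the 24 Foxp3+ folds below 0. Without replicate 1 the medians were 0.655, 0.459 and -0.0227, with 13 of 25 Foxp3+ folds below 0. In that fit 11, 8 and 2 of 25 rose and 0 fell in each class. Libraries differed in direction, since the whole list summed to 6844, 11650 and 10970 CPM in cycling against 10430, 6818 and 7819 CPM in non-cycling CD8 cells. In CD4 cells the sums were 2389, 5681 and 5028 against 3505, 2780 and 1978 CPM, and in Foxp3+ cells 4808, 5106 and 3992 against 4992, 3362 and 2758 CPM, so replicate 1 was lower in cycling cells of all 3 classes and the other libraries higher. Without replicate 3, 4 of the 8 CD8 and 2 of the 8 CD4 calls held, and without replicate 2, 4 of the CD8 calls. At matched depth 4 rose in CD8 cells, 2 rose and 1 fell in CD4 cells and 1 rose and 2 fell in Foxp3+ cells, out of 20 tested. The steadiest was Lgals1 (chr15:78926725-78930465), which encodes galectin-1, a lectin of activated T cells. It stood at 1218, 1239 and 1398 CPM in cycling CD8 cells against 440, 237 and 278 CPM (2.04 ± 0.20, edgeR adjusted p = 9.8e-08), and the states did not overlap. It rose by 2.10 ± 0.20 in CD4 and 1.48 ± 0.20 in Foxp3+ cells, and all 3 calls were kept. In thinned CD8 cells it was found in 71.2, 61.3 and 70.8% of cycling and 37.9, 19.2 and 20.2% of non-cycling cells, against 4.95, 2.71 and 3.36% of B cells.

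Of the granule genes, Gzmb (chr14:56258838-56262260), which encodes the protease granzyme B, stood at 152, 206 and 181 CPM in cycling CD8 cells against 96.4, 72.2 and 60.9 CPM (1.18 ± 0.20, edgeR adjusted p = 0.00014, kept). Its calls in CD4 (1.22 ± 0.40) and Foxp3+ cells (1.16 ± 0.26) were lost without replicate 1 (1.01 and 0.65, edgeR adjusted p = 0.26 for both) and at matched depth. Nkg7, a granule membrane protein, rose in CD8 cells from 707, 295 and 291 CPM to 899, 743 and 722 CPM (0.95 ± 0.31, kept), but was lost without replicate 2 (0.84) or replicate 3 (0.78). Gzmk, a granzyme counted here among the stem-like genes, rose in CD8 cells by 0.88 ± 0.26 (kept, lost without replicate 3 at 0.75) and in Foxp3+ cells by 2.16 ± 0.50 (kept, lost without replicate 1 at 1.92). The pore protein gene Prf1 and the cytokine gene Ifng did not pass in any class, at -0.52 ± 0.21 and 0.01 ± 0.47 in CD8 cells.

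When only cells with a Pdcd1 UMI were taken in both states, called Pdcd1-positive here, Gzmb (0.53), Nkg7 (0.46), Gzmk (0.29) and Gzma (0.16, against 1.40 ± 0.40 over all cells) were no longer called in CD8 cells. Lgals1 (1.24), Il7r (-2.10), Ccr7 (-0.79) and Lef1 (-0.63) were still called there. Cdkn2c (1.77) and Ifit1 were called in CD8 cells as well.

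Of the receptors that restrain T cells, few passed the test. Pdcd1, which encodes PD-1, stood at 142, 199 and 126 CPM in cycling CD8 cells against 245, 143 and 184 CPM, and the states overlapped (-0.33 ± 0.28, edgeR adjusted p = 0.40). Ctla4, Lag3 and Tigit did not pass either, with folds of -0.01 ± 0.18, -0.11 ± 0.33 and -0.06 ± 0.35 in CD8 cells. Of 12 such genes tested, 1 rose in CD8 cells (Entpd1, 0.83 ± 0.28), 1 in CD4 cells (Cd200, 0.70) and 2 fell in Foxp3+ cells, Cd200 among them (-0.95, kept, lost without replicate 1 or 3). The list median was -0.03 in CD8, 0.31 in CD4 and -0.62 in Foxp3+ cells, where 11 of the 12 folds lay below 0. Without replicate 1 the medians were 0.28, 0.75 and -0.14, with 7 of 11 Foxp3+ folds below 0. In that fit 2, 3 and 0 of 11 rose in CD8, CD4 and Foxp3+ cells, and 0 fell. Among Pdcd1-positive cells 0 of 12 rose and 1, 3 and 4 fell, in a list that holds Pdcd1, by which those cells were chosen. The Foxp3+ counts there rest on cycling cells of replicates 1 and 3, since replicate 2 had too few. Entpd1 lost its call without replicate 2 or 3 and Cd200 in CD4 cells without replicate 3, and neither of these 2 was kept at matched depth.

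Of 12 genes of stem-like PD-1-positive cells tested, 2 were higher and 2 lower in CD8 cells, shares near those of all genes, 1 and 1 in CD4 cells and 2 and 0 in Foxp3+ cells. None of these calls held in all 3 fits that left out 1 library. Without replicate 1, 4 of the 12 rose and 1 fell in CD8 cells, with a median of 0.392 against 0.224. That share of rises was above the 950 of 9416 over all genes. At matched depth 1 of 11 rose and 0 fell in CD8 cells, with a median of -0.345. Slamf6, a marker of stem-like cells, was lower in CD8 (-0.65 ± 0.20) and CD4 cells (-0.64 ± 0.19), which was lost at matched depth and without replicate 1. Eomes and Tox did not pass (0.30 ± 0.25 and 0.20 ± 0.29 in CD8 cells). Of 18 genes induced by the antigen receptor, 1 rose and 5 fell in CD8 cells, 2 fell in CD4 and 3 fell in Foxp3+ cells. The CD4 share is near that of all genes, and the CD8 share of rises is below it. Of the 6, 2 and 3 calls in CD8, CD4 and Foxp3+ cells, 5, 0 and 1 held without replicate 1. At matched depth 2, 0 and 1 of them held, and without the library block 4, 0 and 0. Batf, a factor of effector differentiation, rose in CD8 cells (0.91, kept), and the early response gene Nr4a3 was lower in CD8 (-1.18, kept), CD4 (-0.74) and Foxp3+ cells (-1.13), the latter calls lost without replicate 1.

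Genes of mitochondrial respiration were mostly higher in all 3 classes. Of 25 genes of mitochondrial respiration tested, 22 rose in CD8, 24 in CD4 and 17 in Foxp3+ cells, and none fell. At matched depth 7, 2 and 6 were called, against 544, 539 and 444 of all 7166 genes, and without replicate 3 16, 16 and 11 of the calls held. Sdhb, a subunit of succinate dehydrogenase, rose from 101, 54.7 and 49.9 CPM to 183, 114 and 101 CPM in CD8 cells (0.97 ± 0.13, kept), so replicate 1 was the highest library in both states. Of 17 glycolysis genes 8, 9 and 7 rose and none fell, with 3, 1 and 1 of 16 at matched depth, where the last 2 are near the share of all genes. In Foxp3+ cells the list median was 0.19 and 6 of the 17 folds lay below 0. In CD4 cells 5 of the 9 calls held without replicate 1, and in Foxp3+ cells 4 of the 7. The glycolytic enzyme Gapdh rose by 0.77, 0.65 and 0.67, and was kept in CD8 and Foxp3+ cells.

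Of 20 genes of one-carbon and nucleotide synthesis, 17 rose in CD8 and CD4 cells and 11 in Foxp3+ cells, a list that shares 2 genes with the S-phase list. Without replicate 1, 8, 9 and 6 of these held, and at matched depth 5, 6 and 5 were higher. Mthfd2, the mitochondrial folate enzyme of proliferating cells, stood at 126, 61.3 and 55.6 CPM in cycling CD8 cells against 32.6, 20.9 and 20.2 CPM (1.74 ± 0.18, kept). Dctpp1, which clears unwanted nucleotides, rose by 2.53, 3.21 and 2.81 and was kept in all 3 classes. Genes of ribosome assembly and growth showed 10, 10 and 7 higher and 2, 1 and 0 lower of 26, and this direction was lost in CD8 cells at matched depth, where 0, 1 and 0 of 25 were higher and 2, 0 and 0 lower. Without replicate 1 2, 4 and 1 were higher and 3, 1 and 0 lower, with a CD8 median of 0.04 against 0.44. The polyamine enzyme Odc1 and the amino acid transporter subunit Slc3a2 were the 2 that fell in CD8 cells (-0.71 and -0.91), Odc1 not without replicate 3.

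**Figure D5:**
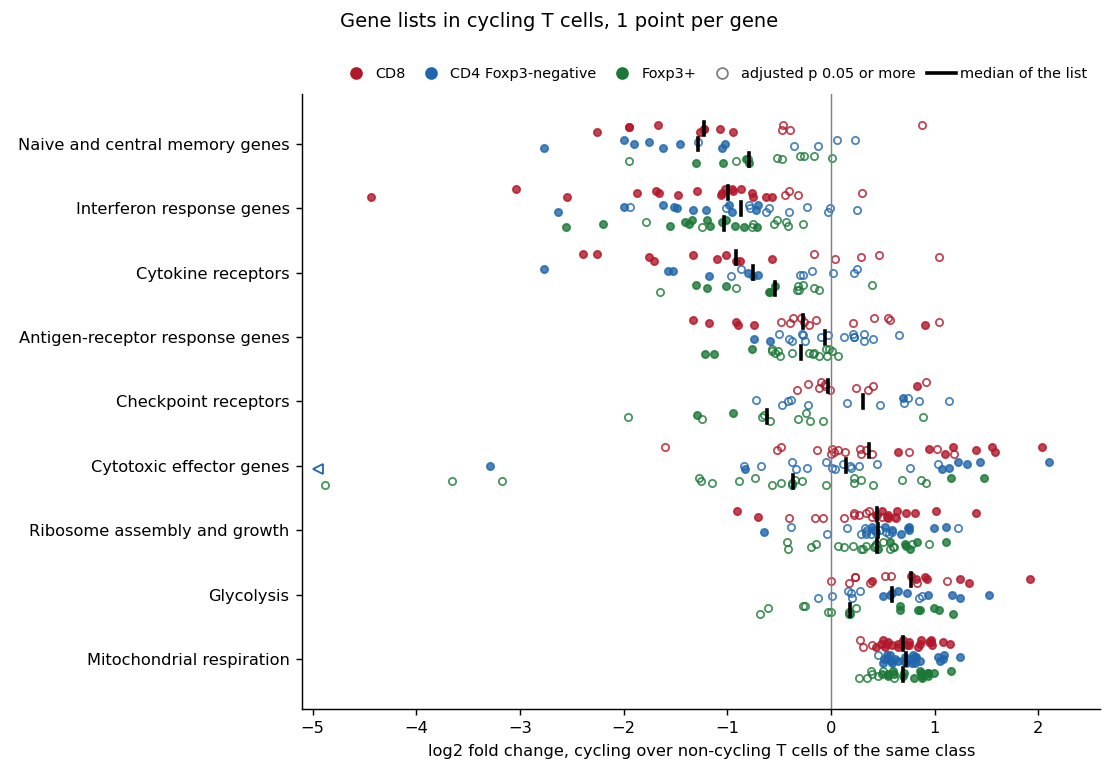
Log2 fold changes of cycling over non-cycling cells for the tested genes of 9 lists, 1 point per gene, with the list median as a bar and filled points for edgeR adjusted p under 0.05. A triangle at the left edge stands for 1 CD4 gene beyond the axis, Ccl3, with 0 UMIs in cycling cells. Naive, interferon and cytokine receptor genes lie mostly left of 0, and the 25 genes of respiration lie right of it in all 3 classes.

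Death and survival genes were also listed. The pro-death gene Bcl2l11 (BIM, chr2:128126038-128162547) stood at 84.75, 121 and 188 CPM in cycling CD8 cells against 214, 282 and 309 CPM (-1.13 ± 0.17, edgeR adjusted p = 4.3e-05), and the states did not overlap. It changed by -1.08 ± 0.19 in CD4 and -0.61 ± 0.20 in Foxp3+ cells, none of the 3 kept, and the last was lost with any 1 library left out. The survival gene Mcl1 was lower by a small amount in all 3 (-0.32, -0.43 and -0.38), and each of these calls was lost with 1 library left out. Of 16 such genes, 5 rose and 3 fell in CD8 cells, 1 rose and 2 fell in CD4 cells and 1 rose and 3 fell in Foxp3+ cells. In CD8 cells 4 of the 8 calls held without replicate 1, 2 or 3, 2 held in all 3 of these fits and 1 at matched depth, and in Foxp3+ cells 1 of the 4 held in each. In CD4 cells 3, 2 and 2 of the 3 calls held without replicates 1, 2 and 3, and 1 at matched depth. The 3 CD4 calls together are no larger a share than the calls among all genes.

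Of 19 genes of the regulatory class tested in Foxp3+ cells, none rose and 3 fell, with 18 folds below 0 and a list median of -0.62, which was -0.27 without replicate 1 (16 of 21 below 0) and -0.23 at matched depth. The whole list summed to 3542, 5558 and 4709 CPM in cycling against 7088, 6118 and 5749 CPM in non-cycling Foxp3+ cells, lower in each library. Among the 3 were Il10, an inhibitory cytokine (-1.01), and Lrrc32, which holds latent TGF-beta on the cell surface (-1.07), and none of the 3 calls was kept at matched depth or without replicate 3. Ikzf2, which encodes Helios, stood at 770, 900 and 1019 CPM against 1504, 1097 and 1007 CPM and did not pass (-0.32 ± 0.23). Of 14 helper genes, 2 fell in each class, a share near that of all genes in CD8 and CD4 cells, and both CD8 calls were lost without replicate 1. Tnfsf8 (chr4:63831308-63861347), which encodes the CD30 ligand, stood at 20.7, 36.2 and 56.8 CPM in cycling Foxp3+ cells against 197, 227 and 201 CPM (-2.495 ± 0.52, edgeR adjusted p = 0.0016, kept), a call lost when cells with 2 UMIs of the rule genes were counted as cycling (-1.04). Of 18 homing genes, 1 rose and 1 fell in CD8 cells, where the gut-homing integrin chain Itgb7 rose by 1.03 (kept, lost without replicate 2 at 0.80). In CD4 and Foxp3+ cells 2 fell and none rose. The CD8 shares are below those of all genes, and that of the falls in CD4 cells is near it. Without replicate 1, 5, 2 and 2 of 19 homing genes rose in CD8, CD4 and Foxp3+ cells, and 1, 2 and 3 fell. The share of rises in CD8 cells was then above that of all genes (950 of 9416), with a median of 0.314 against -0.133.

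The calls with the largest fall outside the cell-cycle lists were led by Ifit1 in CD8 cells and by Ccl4, a chemokine of the effector list, in CD4 cells. Ccl4 stood at 3.46, 3.81 and 11.7 CPM in cycling CD4 cells against 58.4, 117 and 13.5 CPM (-3.28 ± 1.18, edgeR adjusted p = 0.044). This call was lost at matched depth and without replicate 1 (-2.63, edgeR adjusted p = 0.46). Tcp11l2 stood at 12.8, 19.9 and 19.3 CPM in cycling CD8 cells against 131, 61.9 and 60.3 CPM (-2.47 ± 0.28, kept), and fell by 2.46 and 1.96 in CD4 and Foxp3+ cells. Rflnb, a regulator of the actin cross-linker filamin, changed by -2.25, -2.35 and -0.80, the last not kept and lost without replicate 1. Iigp1, an interferon-induced GTPase, changed by -1.96, -2.04 and -1.40, kept in CD8 and CD4 cells. In CD4 cells the interferon gamma receptor chain Ifngr2 fell by 2.24 (kept), and Txk, a kinase of the T-cell receptor pathway, by 1.93 (not kept).

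Markers of other cells were measured beside these results. The 10 B-cell markers summed to 128, 134 and 155 CPM in cycling CD8 cells and to 1217, 161 and 586 CPM in non-cycling ones, led by Igkc, the immunoglobulin kappa chain. Igkc was the 1 of 2 tested that fell (-2.74, lost without replicate 1), and the upper limit on Cd79a is part of the rule for both states. The 10 dendritic-cell markers summed to 937, 1178 and 205 CPM against 1084, 264 and 824 CPM in CD8 cells, to 656, 312 and 4175 CPM against 2038, 600.3 and 1385 CPM in CD4 cells, where cycling cells of replicate 3 stood far above the other libraries, and to 2409, 5558 and 1999 CPM against 1407, 2677 and 2324 CPM in Foxp3+ cells, led by the class II chaperone Cd74, and 0 of 5 tested were called. Of these, Cd209a and Siglech were at 0 in cycling CD8 cells. The 10 macrophage markers summed to 18.8, 28.9 and 14.5 CPM in cycling CD8 cells, with C1qa, C1qb, Adgre1 and Fcgr1 at 0, and the natural killer markers Ncr1 and Klrb1c were at 0 in cycling cells of all 3 classes. No macrophage, natural killer or islet endocrine marker was called, of 3, 7 and 3 tested. Without replicate 1, however, 3 of 7 natural killer markers were called higher in cycling CD8 cells (median 0.974 against 0.478). This list also held innate lymphoid markers and Eomes, given above with the genes of stem-like T cells. Eomes led it in cycling CD8 cells, at a mean of 150.5 of 335.6 CPM, where Klra8 was at 0 too. Among Pdcd1-positive CD8 cells 1 of 7 was called higher. At matched depth some markers of other cells were called lower in cycling cells. These were 2, 1 and 0 of 7 dendritic-cell markers in CD8, CD4 and Foxp3+ cells (medians -1.83, -2.36 and -0.93, all 7 folds below 0 in each class), 2 of 3 macrophage markers in CD4 cells and 1, 2 and 1 of 7 natural killer markers. The matched non-cycling cells thus held more RNA of the markers called. Of 3 plasma-cell markers, 1 rose (Prdm1, also a factor of effector T cells) and 1 fell in CD8 cells. Of these 2 calls 1, 1 and 0 held without replicates 1, 2 and 3, and 2 at matched depth. The part of these cells in the gene results was not tested.

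The gamma-delta T-cell markers summed to 94.2, 93.8 and 106 CPM in cycling CD8 cells against 72.9, 45.0 and 50.3 CPM, led by Tcrg-C2, which rose (1.31, lost without replicate 3). Its constant segment is near-identical to that of another gamma locus, so its reads are uncertain. Cells marked as doublets by simulated cell pairs were 3.47, 7.46 and 7.23% of cycling and 1.25, 2.88 and 4.13% of non-cycling T cells. By class they were 2 of 114 cycling CD8, 5 of 93 CD4, 5 of 58 Foxp3+ and 5 of 23 cells with genes of more than 1 class. Without marked cells 2413 of 2511 calls in CD8, 2114 of 2272 in CD4 and 1263 of 1457 in Foxp3+ cells remained.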

How the data were processed

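Live CD45+ islet cells of 3 libraries were profiled by droplet 3' single-cell RNA sequencing. The authors aligned and counted the reads with Cell Ranger 6.0.1 (mm10), and the deposited values are raw UMI counts per gene and cell for 32285 genes. The files give 26947 cells, and 26142 passed the limits of 1000 UMIs and 10% mitochondrial UMIs. The cycling cells and the 29 gene lists were chosen with earlier results of these data known.

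UMIs were summed per library, class and state (at least 10 cells, 221108 to 17104550 UMIs a sum) and tested with edgeR 4.0.16 (R 4.3.3; low-count filter, TMM scaling, library as block, Benjamini-Hochberg adjustment). Same-numbered sums come from the same pooled mice. Their deviations from the group means correlated at a mean r of 0.26 within a library (-0.0017 to 0.7376). The deviations of a group cancel over the libraries, which ties the mean r between libraries (-0.12) to the one within. It is therefore no separate contrast. Standard errors were taken from the fold change and its F statistic. Shares were compared over the 3 libraries by exact sign flips, and intervals are Clopper-Pearson. Nothing in the labels says that each library came from other mice than the next, so p-values measure the spread between libraries. Named genes were the 10 largest calls in each direction in CD8 and CD4 cells with at least 50 CPM in the higher state and the same direction in each library, outside the cell-cycle lists, plus genes of the lists. Gene coordinates are GENCODE M21 on GRCm38. In simulated CD8 sums with 200 genes changed by a log2 fold of 2, 82.5% were recovered with 2 false calls among 8292 genes, and 65% for the difference between CD8 and CD4 cells, also with 2 false calls. The simulated sums shared a single mean profile and the same spread for every gene, with no library or class effect. The rate of false calls in the data cannot be read from them. Alternatives were DESeq2 1.42.0, library totals without TMM, no low-count filter, thresholds of 2 and 5 UMIs, a stricter T-cell gate, no doublet-marked cells, Pdcd1-positive cells only, depth-matched cells, the study's filter, no block, no thinning and each library left out. Doublets were marked by nearest neighbours among simulated cell pairs and were kept. DESeq2 adjusted p-values given as missing were left missing. Some single genes are not reported here, though they count in their lists.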

Additional observations from a re-analysis of the deposited data

Results flagged for a closer look

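The fall of Lef1 with cycling differed between CD4 and Foxp3+ T cells, at -1.99 against -0.26 on the log2 scale. The test of the difference itself gave -1.73 ± 0.28 (edgeR adjusted p = 0.037). Non-cycling Foxp3+ cells already stood at 106, 126 and 157 CPM, under the 180, 362 and 388 CPM of non-cycling CD4 cells. No gene was called in this comparison at matched depth, among Pdcd1-positive cells, with the stricter T-cell gate, without the library block, without replicate 2 or without replicate 3.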

How the results depend on the processing

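Counts of calls fell most when depth was matched, to 544 higher and 228 lower genes in CD8, 539 and 222 in CD4 and 444 and 85 in Foxp3+ cells, with fewer cells in the sums. Among Pdcd1-positive cells the counts were 922 and 573, 689 and 401, and 533 and 262. The Foxp3+ counts there had no cycling sum of replicate 2, which held 8 such cells. Without the replicate block, which leaves the library differences in the error, lower calls were 564, 492 and 197 and higher calls stayed within 1.5 times. With a threshold of 2 UMIs, lower calls were 574 in CD4 and 184 in Foxp3+ cells, and without the low-count filter 741 in Foxp3+ cells. Leaving out 1 library gave 950 to 1067 higher and 589 to 692 lower genes in CD8, 841 to 1051 and 475 to 616 in CD4, and 483 to 740 and 218 to 271 in Foxp3+ cells.

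Genes whose fold differed between CD8 and CD4 cells numbered 1 by DESeq2, 1 without doublets and 25 without the low-count filter. Between CD8 and Foxp3+ cells they numbered 15 by DESeq2, 1 with each of the thresholds of 2 and 5 UMIs, 1 at matched depth, 59 without the filter and 0 to 5 with 1 library left out. Between CD4 and Foxp3+ cells they numbered 6 by DESeq2, 4 with a threshold of 5 UMIs, 2 without doublets and 36 without the filter. The number was 0 among Pdcd1-positive cells, at matched depth, with the stricter gate and without the block. It was 0 to 3 with 1 library left out (0 without replicate 2 or 3). At the threshold of 5 UMIs replicate 2 gave no CD4 or Foxp3+ cycling sum (9 and 8 cells). DESeq2 left the adjusted p missing for 6270 of 8292 genes between CD8 and Foxp3+ cells. It was missing for 3537 genes between CD4 and Foxp3+ cells.

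The excess of the CD8 over the CD4 cycling share was 0.164 points in thinned cells (exact permutation p = 0.75) and 0.195 under the study's filter, and 1.33 to 3.338 with 1 library left out. That of Foxp3+ over CD4 cells was 0.314, 0.211 and 2.106 to 3.828, and that of Foxp3+ over CD8 cells 0.149, 0.0164 and 0.4904 to 0.8455, 1.615 with a threshold of 2 UMIs, 0.446 with the stricter gate (-0.335 in replicate 1) and 0.407 without doublets (-0.403 in replicate 1). The CD4 part of the cycling cells turned to 0.0531 points above that of non-cycling cells with a threshold of 2 UMIs, and the Foxp3+ part was 11.6 points above without thinning. The CD8 part was 9.67 points above in thinned cells, 19.4 without thinning and 6.07 with a threshold of 2 UMIs. Without thinning, differences in the share of cells with a UMI were -12.9 for Il7r in CD8 and -0.959 in Foxp3+ cells, 48.6 and 41.97 for Lgals1 in CD4 and Foxp3+ cells, and 35.4, 28.96 and -2.61 for Nkg7, Gzmb and Tcf7 in CD8 cells. Unthinned shares follow depth.

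The counts here do not show that each direction held, since folds near 0 can change sign. Of the CD8 checkpoint receptor folds, 7 of 12 lay below 0, and 2 of 11 without replicate 1. Over 378 gene values, 4235 of 4911 comparisons with an alternative stayed on their side of the threshold, 566 lost the call, 101 gained one and 9 were counted as turned. These 9 were Srm (-0.22 without replicate 1, and up to 1.743 with another library left out), Tnfsf8 (-1.72 with a threshold of 5 UMIs, -1.32 without doublets, -1.31 without replicate 2, and up to 0.97 with another library left out) and Xcl1 (-0.35 at matched depth) in CD8 cells, and Lag3 (-0.74 with a threshold of 5 UMIs), Lgals3, Klrd1 and Irf8 (-0.25, -0.15 and -1.12 at matched depth) in CD4 cells. With a threshold of 5 UMIs, replicate 2 held 9 CD4 and 8 Foxp3+ cycling cells, under the minimum of 10 for a sum. The values of these 2 classes at that threshold therefore rest on cycling cells of replicates 1 and 3. The cause of the turns was not tested. The gene tests under the study's filter could not be fitted, since it left 22 cycling cells. With 12 to 59 cycling cells a sum and 3 libraries, a gene not called is not shown to be equal.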

Other observations

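A T-cell receptor beta variable segment (Trbv) was found in 124 of the 265 cycling CD8, CD4 and Foxp3+ cells (46.8%) and in 2160 of the 9349 non-cycling ones (23.1%), which were shallower. The cycling cells held 21 different segments. These are gene segments read from 3' tags, not clonotypes.

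Outside the T-cell gate, 197 cells held at least 3 UMIs of Mki67 and Top2a, 174 of them with more than 1 UMI of Cd79a and 103 of these also with a Cd3 UMI. Among cells with at least 2 Cd79a UMIs and no Cd3 UMI, taken as B cells, 2.48% (39 of 1573), 1.01% (16 of 1591) and 1.38% (16 of 1162) were cycling in replicates 1, 2 and 3, so replicate 1 was the highest here too.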
